A study of Mus musculus with 4 samples.

Results

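The S100 calcium-binding protein genes were followed in single colon macrophages from mice given diesel exhaust particles (DEP) or only phosphate-buffered saline (PBS). The members were named by gene, and a row of the deposited table belonged to the family when its Ensembl identifier mapped to one of the 8 names. Rows were found for 6 of them, among 12596 genes in 943 cells: S100a1, S100a4, S100a6, S100a10, S100a11 and S100a13. S100a8 and S100a9 matched no row and were not analysed here. Other rows carrying an S100 symbol were nearly empty. S100b had 4 UMIs (unique molecular identifiers, each standing for one captured transcript) and S100a16 had 17 UMIs in 8 cells, none of which was among the cells retained below. S100pbp, which encodes an S100-binding protein and no S100 protein, had 13 UMIs.

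Male C57/Bl6N mice, for which the labels name no engineered allele, were gavaged 5 days a week for about 6 months with 12 µg DEP in 200 µL PBS (mice 14 and 15) or with 200 µL PBS (mice 2 and 3). The ages of the mice are not given in the sources used here. Lamina propria cells positive for Cd11b and for Ly6c2 or Cd64 were sorted, and each mouse was loaded in a single well, so that 1 library stands for 1 mouse. P-values between DEP and PBS mice thus set a difference against the spread between mice and wells together. That spread was mostly pooled over all genes, and little of it was each gene's own. Comparisons between bins were made within mice, so their p-values set the bin difference against the spread left within mice, shared over all genes. Along the path from newly arrived monocytes to resident macrophages, cells were divided by the share of their UMIs taken by C1qa, C1qb and C1qc, which encode the chains of complement C1q and are abundant in resident macrophages: C1q-low cells under 0.3%, C1q-intermediate cells from 0.3 to 1%, and C1q-high cells above 1%.

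S100 proteins are small cytosolic proteins with a pair of EF-hand motifs that mostly act as dimers. Calcium changes the shape of most of them and opens a surface that grips a partner such as an annexin or a myosin. S100A10 is the exception, since it no longer binds calcium and holds annexin A2 permanently. In monocytes and macrophages several of them are known in cell movement, membrane repair and release from damaged cells.

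Cells with a UMI in 3 or more markers of one of 5 other cell classes were left out before the comparisons. This removed 299 cells, 283 of them by B or plasma cell markers and mostly through immunoglobulin transcripts, and the removal was uneven: 40.7% and 41.6% of the cells of DEP mice 14 and 15 against 16% and 23.2% of those of PBS mice 2 and 3. Only 19 of the 943 cells held 3 or more B or plasma cell markers other than immunoglobulins. Resident macrophage markers, 3 or more, were found in 885. The annotation in the paper set aside far fewer cells as neither monocytes nor macrophages. In every mouse the cells left out held more UMIs, with medians of 3244.5 to 7316 against 2623.5 to 4127 in the retained cells. Immunoglobulin transcripts stood at 21666 and 30162 CPM in the DEP libraries and at 1461 and 8600 CPM in the PBS libraries, and their part in the results was not tested. When immunoglobulin transcripts were not used as markers, 40 cells were left out and 903 kept, and values on that set and on all 943 cells are given beside the results they move. Of the 644 retained cells, 129 were C1q-low, 50 C1q-intermediate and 465 C1q-high, with 440856 to 776260 UMIs per mouse. The median cell held 3079, 2488 and 3513 UMIs in the 3 bins. One cell barcode was shared between a pair of mice.

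The measured members lie on mouse chromosome 3 (GRCm38, GENCODE M21), in 2 groups. S100a1 (3:90511034 to 90514392, minus strand) and S100a13 (3:90514435 to 90524581, plus strand) are placed head to head with 42 bases between them. S100a4 (3:90603771 to 90606045) and S100a6 (3:90612882 to 90624181) follow on the plus strand, with 6836 bases between them. S100a11 (3:93520488 to 93526287) and S100a10 (3:93555080 to 93564643), both on the plus strand, lie 2896306 bases beyond S100a6 and 28792 bases apart. S100a4 shares 2115 bases with Gm42674 on the same strand and S100a11 has a processed pseudogene on chromosome 12 (S100a11-ps, 12:73961142 to 73961447), neither of which was analysed here, so the counts of S100a4 and S100a11 are uncertain by the reads that these shared stretches could hold.

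RefSeq promoter windows of 300 bases (250 before and 50 after the start, GRCm38.p6) were matched by symbol for 5 of the 6 measured members, and S100a10 had none. The windows of S100a4, S100a6 and S100a11 are printed because these genes were higher in C1q-low cells, and that of S100a1 because it was lower. Each is written 5′ to 3′ on the strand of its gene, with capitals marking matches to the motifs searched.
S100a4 (chr3:90603520-90603819, plus strand): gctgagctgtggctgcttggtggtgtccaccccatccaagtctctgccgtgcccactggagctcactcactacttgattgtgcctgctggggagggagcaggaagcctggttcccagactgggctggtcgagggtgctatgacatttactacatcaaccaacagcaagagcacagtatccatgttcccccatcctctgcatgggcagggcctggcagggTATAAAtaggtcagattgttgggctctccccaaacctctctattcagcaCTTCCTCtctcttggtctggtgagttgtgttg
S100a6 (chr3:90612644-90612943, plus strand): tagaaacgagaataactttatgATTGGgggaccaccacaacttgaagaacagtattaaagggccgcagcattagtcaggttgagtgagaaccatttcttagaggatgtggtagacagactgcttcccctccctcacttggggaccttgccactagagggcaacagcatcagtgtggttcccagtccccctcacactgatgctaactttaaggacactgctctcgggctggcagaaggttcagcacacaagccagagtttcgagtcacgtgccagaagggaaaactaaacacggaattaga
S100a11 (chr3:93520246-93520545, plus strand): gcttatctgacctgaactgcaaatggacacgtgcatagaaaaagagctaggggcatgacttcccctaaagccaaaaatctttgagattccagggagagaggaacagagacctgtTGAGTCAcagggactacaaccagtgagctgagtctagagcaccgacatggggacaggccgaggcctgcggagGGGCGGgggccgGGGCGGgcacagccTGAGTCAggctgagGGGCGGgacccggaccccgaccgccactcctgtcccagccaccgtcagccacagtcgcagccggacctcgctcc
S100a1 (chr3:90514281-90514580, minus strand): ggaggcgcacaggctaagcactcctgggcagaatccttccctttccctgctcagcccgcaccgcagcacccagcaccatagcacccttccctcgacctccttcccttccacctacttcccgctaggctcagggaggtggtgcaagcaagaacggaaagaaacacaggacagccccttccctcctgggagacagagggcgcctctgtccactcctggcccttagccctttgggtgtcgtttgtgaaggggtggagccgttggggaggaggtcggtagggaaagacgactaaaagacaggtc
The windows of S100a1 and S100a13 share 204 bases (chr3:90514281-90514484) on opposite strands.

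The motifs were searched on both strands, and the share of all 32851 windows that held each is given as the background. The S100a4 window held a TATA box (TATAAA, 13.6% of windows) starting 31 bases before the start and a PU.1-type motif (GAGGAAG, 13.6% of windows) on the minus strand. PU.1 is the factor that specifies myeloid cells. The S100a6 window held a CCAAT box (CCAAT, 37.4% of windows) on the minus strand. The S100a11 window held 2 AP-1 motifs (TGANTCA, 7.81% of windows), for the stress-responsive Fos and Jun factors, and 3 GC boxes (GGGCGG, 35.7% of windows). The windows of S100a1 and S100a13 held none of these letters, and no window of the 5 held the C/EBP motif (TTNCGNAA, 2.47% of windows) or the interferon-stimulated element (3.44% of windows). No motif was found in all 3 of the printed windows of genes higher in C1q-low cells.

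The first comparison asked how the family differed along the C1q bins, within each mouse. S100a4, S100a6, S100a10 and S100a11 were higher in C1q-low than in C1q-high cells of all 4 mice, S100a1 was lower in all 4, and S100a13 did not pass the test. Thus 5 of the 6 members were called at an adjusted p under 0.05 by the quasi-likelihood test of edgeR with the mouse as a block, 4 of them higher and 1 lower. Of the 5094 genes tested, 17.2% were called, 7.11% of them being higher and 10.1% lower in C1q-low cells, and the median log2 difference was -0.10 over all genes and 2.08 over the 6 members. The p-values are small because the spread was shared over all genes and the difference of each gene was set against that common spread, so the agreement of the 4 mice is given beside them. Levels are in CPM (the UMI count of a gene relative to its library total, with TMM scaling). The kit counts transcript ends, so no length was divided out.

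S100a6, or calcyclin, which binds annexins and the calcyclin-binding protein, was measured at 2251 and 2725 CPM in C1q-low cells of the DEP mice 14 and 15 and at 2246 and 3066 CPM in those of the PBS mice 2 and 3. In C1q-high cells it was measured at 223 and 406 CPM in the DEP mice and at 96.7 and 383 CPM in the PBS mice. The lowest C1q-low library was thus above the highest C1q-high library. The log2 difference was 3.32 (SE 0.196), a 10.0-fold higher level, with an edgeR adjusted p of 1.14e-61. Within single mice the ratio ran from 6.71 in mouse 15 to 23.2 in mouse 2, whose C1q-high cells had the lowest level. The 16 settings tried gave 2.75 to 3.58, the lower value after every cell was thinned to 1000 UMIs.

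S100a4, or metastasin, which binds non-muscle myosin and acts in cell movement, showed the largest difference among the members. It stood at 652 and 794 CPM in C1q-low cells of the DEP mice and at 677 and 1186 CPM in those of the PBS mice. In C1q-high cells it was at 27.9 and 55.1 CPM in the DEP mice and at 21.8 and 67.6 CPM in the PBS mice, from 70 UMIs in all. The bins did not overlap, and PBS mouse 3 was highest in both bins. The log2 difference was 4.23 (SE 0.248), or 18.8-fold, with an edgeR adjusted p of 1.66e-62.

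S100a10, the partner of annexin A2, stood at 805 and 1258 CPM in C1q-low cells of the DEP mice and at 873 and 1060 CPM in those of the PBS mice, against 143 and 319 CPM and 135 and 282 CPM in C1q-high cells. Mice 15 and 3 were above mice 14 and 2 in both bins, so that the spread between mice was common to the bins. The log2 difference was 2.23 (SE 0.206, edgeR adjusted p = 3.08e-25), a 4.70-fold higher level.

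S100a11, which binds annexin A1 and takes part in membrane repair, was the most even of these genes over mice. It stood at 1077 and 1164 CPM in C1q-low cells of the DEP mice and at 927 and 1094 CPM in those of the PBS mice, with 255 and 302 CPM and 230 and 344 CPM in C1q-high cells. The log2 difference was 1.92 (SE 0.198, edgeR adjusted p = 2.78e-20), and the ratio within a mouse ran from 3.18 to 4.22.

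S100a1, best known from heart muscle, where it tunes calcium cycling, went the other way. It stood at 43.5 and 40.4 CPM in C1q-low cells of the DEP mice and at 35.7 and 45.6 CPM in those of the PBS mice, from only 16 UMIs. In C1q-high cells it stood at 119.5 and 130.5 CPM in the DEP mice and at 111 and 118 CPM in the PBS mice, from 182 UMIs. The bins did not overlap, and the log2 difference was -1.54 (SE 0.379, edgeR adjusted p = 0.000635). With all 943 deposited cells it was -0.87 (edgeR adjusted p = 0.0381).

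S100a13, a helper in the release of proteins that lack a signal peptide, such as fibroblast growth factor 1, is the head-to-head neighbour of S100a1. It stood at 120 and 249 CPM in C1q-low cells of the DEP mice and at 250 and 217 CPM in those of the PBS mice. In C1q-high cells it stood at 195 and 162 CPM in the DEP mice and at 128 and 191 CPM in the PBS mice, and the bins overlapped. It was lower in C1q-low cells of mouse 14 and higher in those of the other 3 mice, with a log2 difference of 0.29 (95% interval -0.21 to 0.79, edgeR adjusted p = 0.530).

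**Figure D1:**
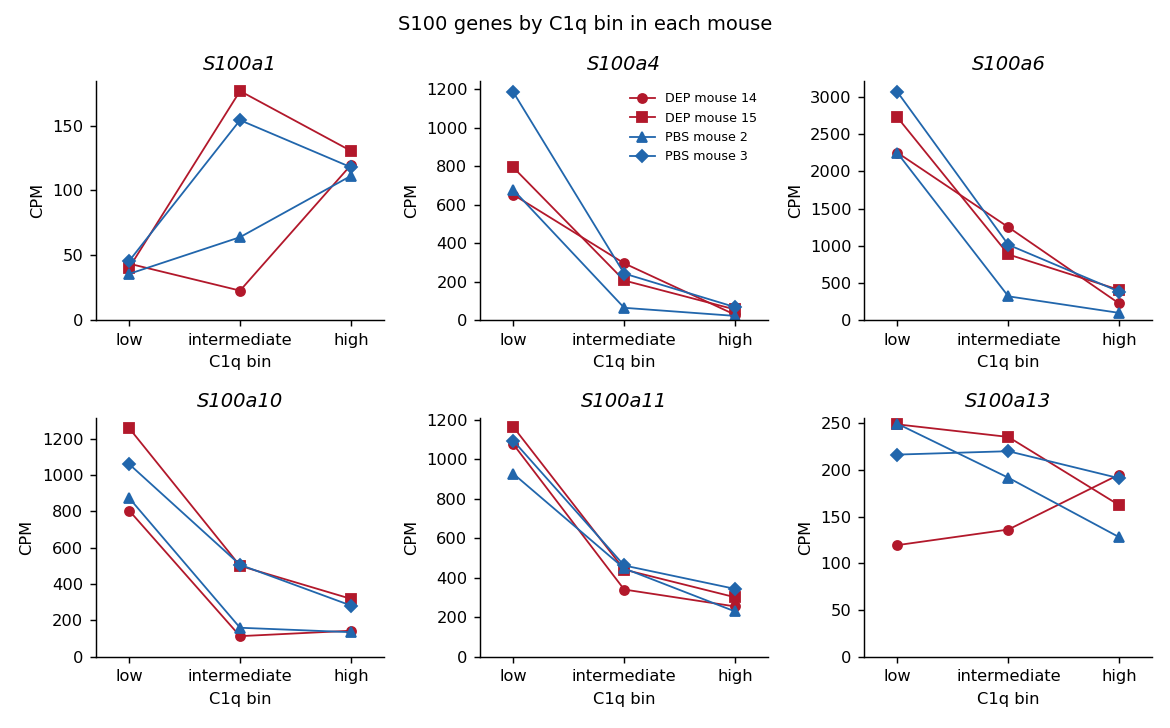
Level of each S100 gene (CPM, linear axis from 0) in the C1q-low, C1q-intermediate and C1q-high cells of each mouse, with 1 line per mouse, DEP in red and PBS in blue. S100a4, S100a6, S100a10 and S100a11 are highest in the C1q-low cells of every mouse, S100a1 is lower there than in C1q-high cells, from 35.7 to 45.6 CPM against 111 to 130.5 CPM, and the lines of S100a13 cross.

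C1q-intermediate cells stood between the others for S100a4 and S100a6. S100a6 was at 1249 and 883 CPM in the DEP mice and at 320 and 1013 CPM in the PBS mice, above C1q-high cells by 1.71 on the log2 scale (SE 0.222, edgeR adjusted p = 1.14e-11). S100a4, at 295 and 206 CPM in the DEP mice and at 63.9 and 242 CPM in the PBS mice, was above C1q-high cells by 2.24 on the log2 scale (SE 0.374, edgeR adjusted p = 4.88e-07). PBS mouse 2 was lowest for both genes. These were the 2 members called in this comparison, both higher in C1q-intermediate cells, against 3.44% of all genes called and 0.628% called higher. S100a10 and S100a11 differed by 0.53 and 0.57 on the log2 scale, and their edgeR adjusted p of 0.366 and 0.240 missed the threshold. The bin holds only 50 cells and 335 member UMIs, and its all-gene median lay at -0.35 on the log2 scale with TMM and at -0.13 with RLE factors, while both genes were called under each scaling. S100a6 lost its call with the bin limits at 0.15% and 0.5% (1.05, edgeR adjusted p = 0.0769) and at 0.5% and 1.5% (0.97, edgeR adjusted p = 0.0785), S100a4 lost its call after thinning, and S100a11 gained one with DESeq2 (0.79) and without immunoglobulin markers (0.80).

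Between C1q-low and C1q-intermediate cells, 4 members were called, all higher in C1q-low cells, against 6.26% of all genes called and 3.93% called higher. The log2 differences were 1.99 for S100a4, 1.61 for S100a6, 1.70 for S100a10 and 1.35 for S100a11. With the bin limits at 0.15% and 0.5% S100a11 lost its call (edgeR adjusted p = 0.0934), and with limits at 0.5% and 1.5% S100a1 gained one (-1.24, edgeR adjusted p = 0.0215). S100a10 and S100a11 showed most of their difference at this step, and so did S100a1 by its estimate. For S100a10 the C1q-intermediate cells were at 114 and 500.4 CPM in the DEP mice and at 159.8 and 506 CPM in the PBS mice. S100a1 (log2 difference -1.33, edgeR adjusted p = 0.148) and S100a13 (0.09, edgeR adjusted p = 0.939) did not pass. The median of all genes was 0.26 with TMM and 0.02 with RLE factors, and the same 4 differences were positive under each.

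Finer steps of the C1q share were followed over the cells of all mice. S100a6 was at 2912 CPM (unscaled) in the 35 cells with no C1q UMI, at 2453 CPM in the 94 cells above 0 and up to 0.3%, at 979 CPM from 0.3 to 1%, at 214 CPM from 1 to 2% in 304 cells and at 260.2 CPM from 2 to 3% in 154 cells. In the 7 cells above 3% it was at 150 CPM, from 3 UMIs. S100a4 ran over these steps from 877 and 797 to 229, 36.1, 38.3 and 50.1 CPM, the last from 1 UMI. S100a10 and S100a11 were not highest in the cells with no C1q UMI, with 877 and 1042 CPM there and 1085 CPM each in the next step. These steps have no test.

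**Figure D2:**
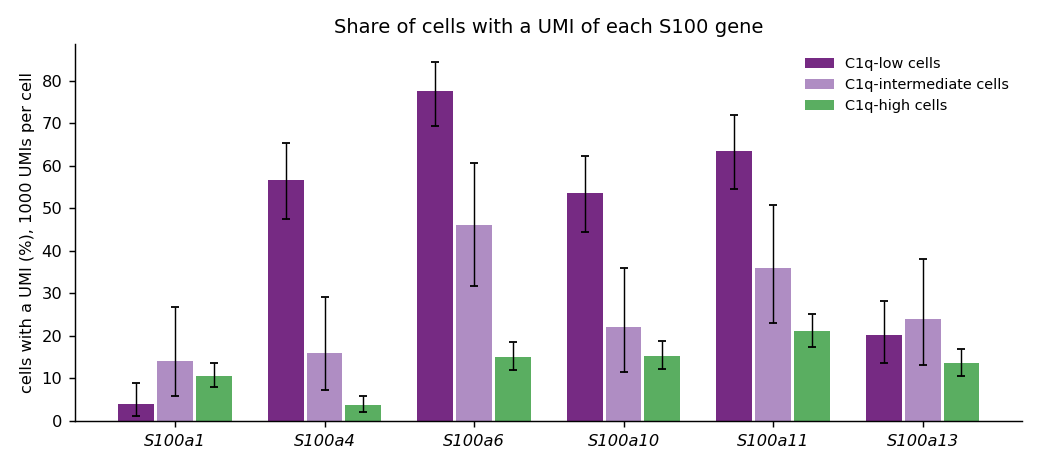
Share of cells with at least 1 UMI of each S100 gene after every cell was thinned to 1000 UMIs, in C1q-low (129 cells), C1q-intermediate (50 cells) and C1q-high (465 cells) cells of all mice, with exact binomial 95% intervals as bars. S100a4, S100a6, S100a10 and S100a11 were found in more of the C1q-low cells, S100a6 in 77.5% against 15.1% of the C1q-high cells.

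The median C1q-low cell held 16 UMIs of the 6 members and 4 different members, the median C1q-high cell 2 UMIs and 2 members, and 98 of the 465 C1q-high cells held none. S100a4 and S100a6 were both found in 103 of the 129 C1q-low cells, S100a4 in 104 and S100a6 in 121 of them. At 1000 UMIs per cell, S100a4 had a UMI in 56.6% of C1q-low cells (exact binomial 95% interval 47.6 to 65.3%) and in 3.66% of C1q-high cells (2.14 to 5.79%), and S100a6 in 77.5% (69.3 to 84.4%) and in 15.1% (11.9 to 18.6%). Without thinning the shares were 80.6% and 7.74% for S100a4 and 93.8% and 23.2% for S100a6. Free RNA also gives UMIs. In 19 cells with 3 or more B or plasma cell markers other than immunoglobulins (median of 5737 UMIs per cell), S100a4 was found in 10.5% and S100a6 in 21.1% without thinning, and after thinning neither had a UMI in these cells, a share of 0 with an exact upper bound of 17.6%. The C1q-high shares of both genes lie under this bound, so 19 cells are too few to show whether either share was above the background. Without thinning, S100a11 lay in 48.0% of C1q-high cells and in 42.1% of the 19, and S100a13 in 37.8% and 15.8%. These shares are not at equal depth, since the median C1q-high cell held 3513 UMIs and the median of the 19 was 5737. The intervals cover counting error only.

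C1q-high cells still held some cells rich in S100a6. At least 5 UMIs of S100a6 were counted in 30 of the 465 C1q-high cells, against 82 of the 129 C1q-low cells. The highest count of S100a6 in 1 cell was 29 UMIs, and the tenth of retained cells with the most S100a6 held 59.4% of its UMIs. For S100a13 this share was 43.8%, with at most 5 UMIs in a cell.

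Monocyte and macrophage markers were present in the bins. The monocyte markers, 12 of 12 in the table, summed to 8544 to 10031 CPM in C1q-low and to 521 to 781 CPM in C1q-high cells, and the resident macrophage markers to 6292 to 14550 CPM and to 43410 to 53015 CPM. Plac8, a monocyte gene, had a UMI in 121 of the 129 C1q-low cells. S100a6 stood at 2640 CPM (unscaled) in those 121 and at 1078 CPM in the other 8. Neutrophils are known for S100 proteins too, and their 9 markers in the table of 15 summed to 316 to 426 CPM in C1q-low and to 105 to 251 CPM in C1q-high cells. Ly6g, Cxcr2, Retnlg, Camp, Ltf and Stfa2l1 were not analysed here, and Ngp and Mmp9 were at 0 in C1q-low cells. Cd177 was at 123 CPM (unscaled) in C1q-low and at 0 in C1q-high cells, Mmp8 at 53.7 and 2.64 CPM, Hdc at 43.5 and 1.06 CPM, G0s2 at 12.8 and 1.06 CPM and Csf3r at 69.0 and 32.2 CPM. Il1r2, the neutrophil marker with the most UMIs, was lower in C1q-low cells, at 71.6 and 119 CPM, and so was Lcn2, at 5.11 and 6.34 CPM. Their part in the S100 values was not tested beyond leaving out the cells below. Only 5 retained cells held 3 or more neutrophil markers, and without them S100a6 differed by 3.33 on the log2 scale between the bins. Dendritic cell markers (7 of 10 in the table) summed to 37.0 to 347 CPM in C1q-low and to 129 to 208 CPM in C1q-high cells, with Xcr1, Zbtb46 and Itgae not analysed here and Clec9a at 0 in C1q-low cells. Cd209a was at 133 CPM (unscaled) in C1q-low and at 10.0 CPM in C1q-high cells, Flt3 at 10.2 and 0 CPM, Ccr7 at 40.9 and 17.4 CPM and Dpp4 at 20.4 and 12.7 CPM. Batf3, the dendritic marker with the most UMIs, was lower in C1q-low cells, at 86.9 and 117 CPM, and so was Siglech, at 2.56 and 7.93 CPM. The 7 C1q-low cells with 2 or more dendritic markers held S100a6 at 2792 CPM, and the other 122 at 2557 CPM. Without such cells in any bin the log2 difference of S100a6 was 3.21.

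The genes that S100 proteins bind or signal through were counted from lists. Of 8 annexins tested between C1q-low and C1q-high cells, 3 were higher, none was lower by the edgeR test and 5 did not pass. Anxa2, the partner of S100a10, was at 957 and 1393 CPM in C1q-low cells of the DEP mice and at 1230 and 1687 CPM in those of the PBS mice, against 155 and 229 CPM and 135 and 220 CPM in C1q-high cells, a log2 difference of 2.83 (SE 0.205, edgeR adjusted p = 5.49e-41). Anxa1, the partner of S100a11, differed by 1.40 on the log2 scale (SE 0.218, edgeR adjusted p = 4.30e-09). Anxa7, a vesicle-fusing annexin, differed by 1.09 (SE 0.362, edgeR adjusted p = 0.0188), from 44 UMIs in C1q-low cells of which mouse 2 held 2, and by 0.24 after thinning (edgeR adjusted p = 0.851). Without DEP mouse 15 it was at 0.82 (edgeR adjusted p = 0.314) and without PBS mouse 3 at 0.90 (edgeR adjusted p = 0.224). Anxa5, the most abundant annexin with 610.4 ± 80.1 CPM over all retained cells (SD, n = 4), was at -0.52 on the log2 scale and did not pass (edgeR adjusted p = 0.0547), though it did in all but 6 of 15 alternatives.

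Of 17 partners and receptors tested, annexins included, 4 were higher and 3 lower in C1q-low cells, with a median log2 difference of 0.13. Beside Anxa1 and Anxa2, Ahnak, a giant scaffold held by the S100a10 complex, differed by 1.38 (SE 0.260, edgeR adjusted p = 2.11e-06), with mouse 14 at 65.2 CPM in C1q-low and 63.7 CPM in C1q-high cells and the other 3 mice higher in C1q-low cells. Plaur, the urokinase receptor, differed by 1.71 (SE 0.221, edgeR adjusted p = 5.76e-13). Its ligand Plau was lower, with 1 and 2 UMIs in C1q-low cells of mice 2 and 15 and none in the others, against 2 to 26 in C1q-high cells (edgeR adjusted p = 0.00622, and 0.0943 without DEP mouse 15 and 0.0504 without PBS mouse 3). Cd36 and Tlr4, scavenger and pattern receptors of the S100a8 and S100a9 proteins, each had 1 UMI in all C1q-low cells, in mouse 15. In C1q-high cells Cd36 had 18 to 49 UMIs per mouse (edgeR adjusted p = 2.92e-08) and Tlr4 6 to 11 UMIs (edgeR adjusted p = 0.0292). The call of Tlr4 held in 6 of the 13 alternatives that tested it. Capzb, an actin-capping subunit and the second most abundant of this list after Anxa5, differed by 0.43 and did not pass (edgeR adjusted p = 0.126).

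Of 20 other EF-hand calcium binders tested, 1 was higher and 1 lower, and their median log2 difference was -0.29. Capn2, the large subunit of a calcium-activated protease, differed by 1.41 (SE 0.453, edgeR adjusted p = 0.0141), a call lost without DEP mouse 14 (1.14, edgeR adjusted p = 0.144) and without PBS mouse 2 (1.22, edgeR adjusted p = 0.0557). Aif1, or Iba1, a macrophage actin bundler, differed by -1.76 (SE 0.199, edgeR adjusted p = 5.21e-17), with 913 and 626 CPM in C1q-low cells of the DEP mice and 143 and 239 CPM in those of the PBS mice, against 1505 to 1697 CPM in C1q-high cells. Both DEP mice were above both PBS mice for Aif1 in C1q-low cells, where the share of all genes in that order is not given. That share was 19.1% over all cells and 17.2% in C1q-high cells.

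**Figure D3:**
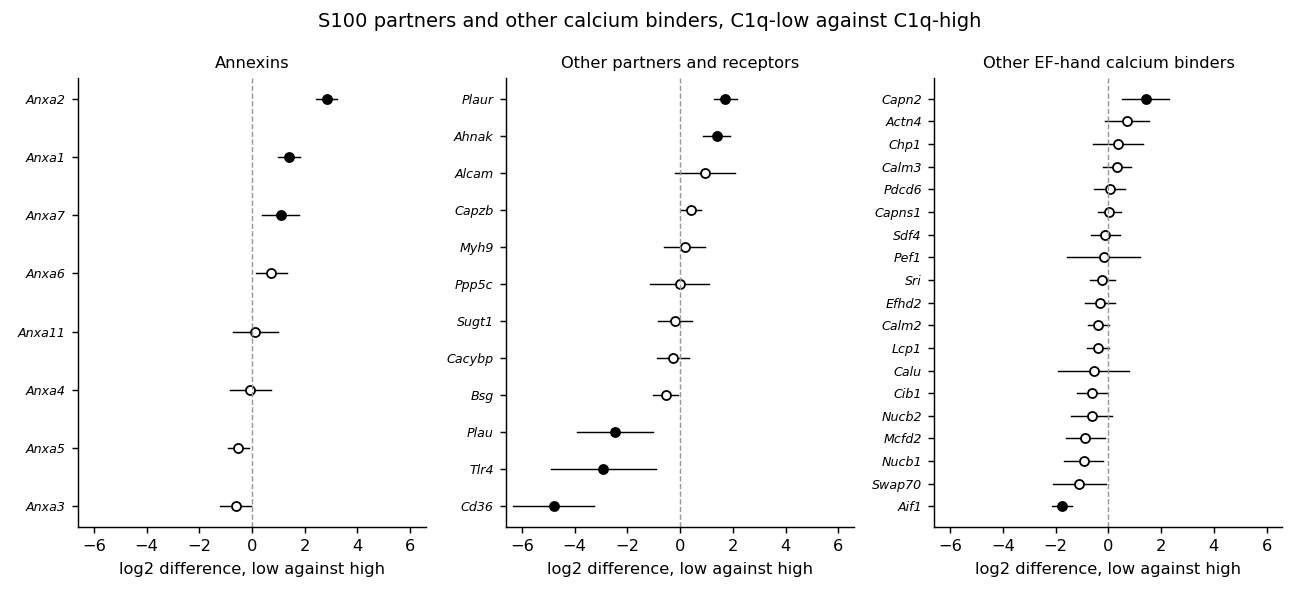
Log2 difference between C1q-low and C1q-high cells, with 95% intervals, for annexins, other S100 partners and receptors, and other EF-hand calcium binders, of which 1 is not shown; filled points passed an edgeR adjusted p of 0.05. Anxa2 (2.83) leads the annexins, Cd36 and Tlr4 rest on 1 UMI each in C1q-low cells, and of the calcium binders only Capn2 (1.41) and Aif1 (-1.76) are filled.

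The second comparison asked whether DEP changed the family. Over all retained cells no member was called (0 of 6 by edgeR, against 0.294% of 5097 genes, 15 in all). At an unadjusted p under 0.05 the test gave 1 member, S100a6, beside 7.93% of all genes, and DESeq2 called none. S100a6 stood at 733 and 954 CPM in the DEP mice and at 315 and 691 CPM in the PBS mice, so that both DEP mice were above both PBS mice, as in 19.1% of all genes. The PBS mice lay farther from each other than mouse 3 from mouse 14. The log2 difference was 0.74 (SE 0.246, edgeR adjusted p = 0.361).

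S100a11, at 410 and 485 CPM in the DEP mice and at 288 and 397 CPM in the PBS mice, did not overlap between the groups either (log2 difference 0.38, SE 0.182, edgeR adjusted p = 0.621). S100a4 was at 184 and 239 CPM in the DEP mice and at 87.8 and 202 CPM in the PBS mice (log2 difference 0.53, edgeR adjusted p = 0.662). S100a10 was at 265 and 521 CPM and at 197 and 353 CPM (log2 difference 0.52, edgeR adjusted p = 0.661). Both groups overlapped for these genes. S100a1, at 80.6 and 94.6 CPM in the DEP mice and at 89.6 and 97.0 CPM in the PBS mice, and S100a13, at 152 and 168 CPM and at 131 and 172 CPM, had log2 differences of -0.08 (95% interval -0.52 to 0.36) and 0.07 (95% interval -0.33 to 0.47).

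**Figure D4:**
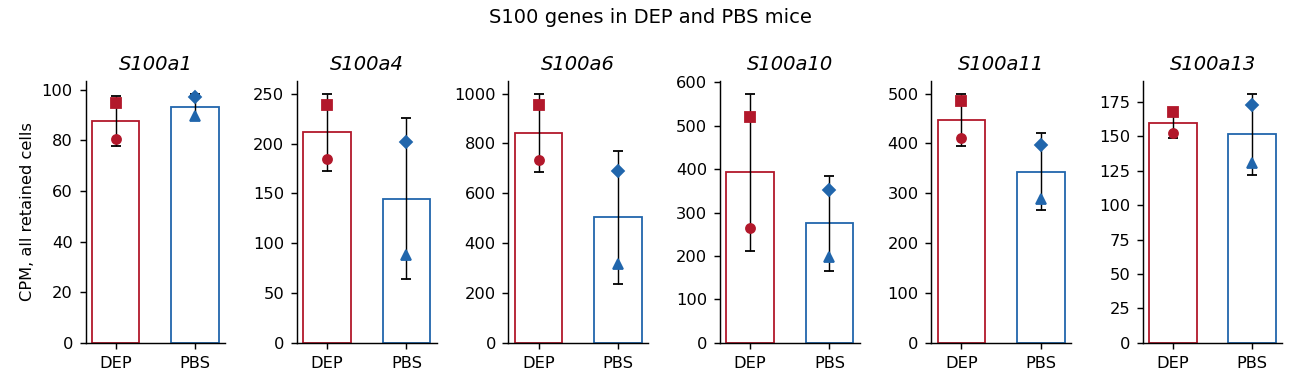
Level of each S100 gene (CPM, axes from 0) over all retained cells, with 1 point per mouse and bars for the mean and SD of 2 mice per group. For S100a6 the DEP mice are at 733 and 954 CPM and the PBS mice at 315 and 691 CPM, and for S100a1, S100a4, S100a10 and S100a13 the points of the groups overlap.

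The make-up of the libraries differed too, and its part in these values was not tested. C1q-low cells were 25.0% and 29.2% of the retained cells in the DEP mice and 11.3% and 14.8% in the PBS mice, 27.1 ± 2.99% against 13.1 ± 2.46% (SD, n = 2 each), with a two-sided exact permutation p of 0.333, the smallest that 2 mice against 2 allow. Where every mouse was given the same share of each bin, leaving 478 cells, the log2 difference of S100a6 was 0.05, that of S100a4 -0.30 and that of S100a10 -0.10. With 903 cells, S100a6 stood at 464 and 601 CPM in the DEP mice and at 276 and 576 CPM in the PBS mice (log2 difference 0.31, edgeR adjusted p = 0.878), and with all 943 cells the difference was 0.34 (edgeR adjusted p = 0.833) and that of S100a4 0.03. One mouse also decided the value: without PBS mouse 2 it was 0.29 and without PBS mouse 3 it was 1.42 (edgeR adjusted p = 0.0593), and without DEP mouse 14 both S100a6 (0.91) and S100a10 (0.91) had an edgeR adjusted p under the threshold (0.000129 and 0.00132). Each of these fits leaves 1 mouse in a group and takes the spread from the other group and from all genes, assuming that the lone mouse varies like the others. With no filter on low counts S100a6 passed as well (0.74, edgeR adjusted p = 0.00158).

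Within the bins no member was called between DEP and PBS mice by edgeR or DESeq2, and no member had an unadjusted p under 0.05. The shares called over all genes were 0.22% in C1q-low, 0.2% in C1q-intermediate and 0.0191% in C1q-high cells, and 5.92%, 4.99% and 5.82% had an unadjusted p under 0.05. The mice did not overlap for S100a11 in C1q-intermediate cells (DEP below, as in 18.9%) and for S100a1 in C1q-high cells (DEP above, as in 17.2%). For S100a11 in C1q-low cells both DEP mice were above both PBS mice under the scaling of that comparison, while the levels given above overlapped. The share of all genes in that order is not given for C1q-low cells. In C1q-low cells, the log2 differences were -0.12 for S100a6 (95% interval -0.50 to 0.27), -0.40 for S100a4 (-0.91 to 0.10), 0.08 for S100a10 (-0.39 to 0.55), 0.13 for S100a11 (-0.32 to 0.57), -0.28 for S100a13 and -0.02 for S100a1, whose interval from -1.53 to 1.49 excludes little. In C1q-intermediate cells they ran from -0.32 for S100a1 to 0.64 for S100a6, with an SE of 0.411 or more. In C1q-high cells they ran from -0.11 for S100a4 to 0.38 for S100a6 (SE 0.328). The latter became 1.70 without PBS mouse 3 (edgeR adjusted p = 0.000226, with mouse 2 as the lone PBS mouse and the spread taken from the DEP mice and all genes) and -0.26 without PBS mouse 2, whose C1q-high cells held only 40 UMIs of S100a6, and -0.27 when immunoglobulin transcripts were not used as markers.

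Between DEP and PBS mice, no annexin and no listed partner passed the edgeR test over all cells (8 and 17 tested), in C1q-low cells (8 and 14) or in C1q-high cells (8 and 17). Of the other EF-hand genes none of 20 passed over all cells, and 1 of 19, Aif1, passed in C1q-low cells. Its log2 difference was 1.92, higher in the DEP mice (SE 0.334, edgeR adjusted p = 0.00760), and it rests on 8 and 21 UMIs in the PBS mice. The call was lost with DESeq2, after thinning, without dendritic-marker cells and without DEP mouse 15 (edgeR adjusted p = 0.890).

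The difference between the DEP effects in C1q-low and C1q-high cells was tested as an interaction. No member was called, against 0.177% of all genes, and 1 member, S100a6, had an unadjusted p under 0.05 beside 4.14% of all genes. Its difference of effects was -0.65 (SE 0.308, unadjusted p = 0.0349, edgeR adjusted p = 1), and with all deposited cells it was 0.02.

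**Figure D5:**
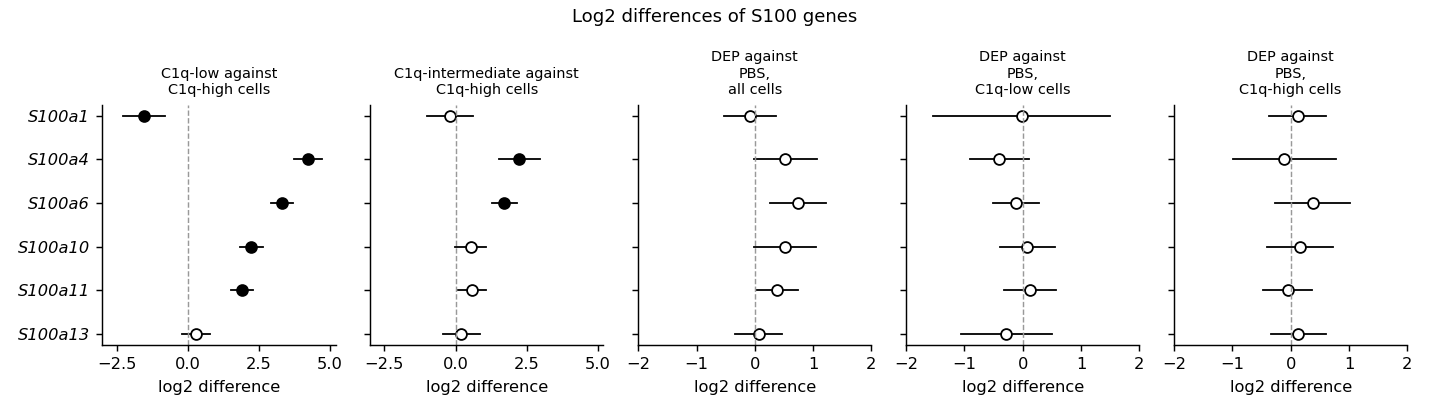
Log2 differences of the S100 genes with 95% intervals in 5 comparisons; filled points passed an edgeR adjusted p of 0.05, and the axes of the C1q comparisons are wider than those of the DEP comparisons. S100a4 (4.23) and S100a6 (3.32) lead the C1q-low against C1q-high panel, and no point of the DEP panels is filled. Intervals are normal, so that of S100a11 between DEP and PBS mice over all cells excludes 0 though its unadjusted edgeR p was 0.0511.

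Over the 12 libraries (4 mice by 3 bins), the members' log2 levels were compared as a description, with no test, since bins of a mouse share a well and the bins themselves order the points. S100a4 and S100a6 were most like each other, with a Pearson r of 0.985, and r to S100a11 was 0.919 for S100a4 and 0.895 for S100a6. S100a1 had an r of -0.64 with S100a4 and of 0.13 with its neighbour S100a13. Among all genes, Tmsb10 and Clec4e (0.949 and 0.943) followed S100a6 for S100a4, and Alox5ap and Clec4e (0.943 and 0.936) followed S100a4 for S100a6. Tmsb10 encodes an actin-sequestering thymosin, Clec4e the Mincle receptor and Alox5ap the protein that activates 5-lipoxygenase. For S100a10 the first gene was Anxa2 (0.940), ahead of Crip1 and Ptpn1 (0.938 and 0.921). For S100a11 it was Stom, a membrane scaffold (0.979), ahead of Emb and Gsr (0.953 and 0.934), of which Gsr is also on the list of monocyte markers. S100a1 was most like Cadm1, Nisch and Ski (0.949, 0.940 and 0.933), and S100a13 most like Clk4, Herc1 and Ptbp3 (0.815, 0.785 and 0.784). The median r over all genes lay between -0.08 and 0.07.

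The make-up of the family differed between C1q-low and C1q-high cells. For all members but S100a10 the shares in these bins did not overlap over mice. C1q-intermediate shares could overlap either bin, as for S100a6 with 25.6 to 57.9%. S100a6 gave 43.7 to 46.0% of the members' UMIs in C1q-low and 13.4 to 29.5% in C1q-high cells. S100a4 gave 12.7 to 17.8% and 2.89 to 4.88%. S100a11 gave 16.4 to 21.8% and 21.9 to 31.8%. S100a1 gave 0.648 to 0.879% and 8.51 to 15.4%, and S100a13 2.42 to 4.98% and 11.8 to 20.2%. The share of S100a10 was 15.9 to 20.2% in C1q-low and 14.9 to 23.2% in C1q-high cells, higher in the C1q-low cells of mouse 14 and lower in those of the other 3 mice. The 6 members together made up 4961 to 6714 CPM in C1q-low cells and 586 to 1118 CPM in C1q-high cells, unscaled.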

How the data were processed

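Single-cell 3' v2 libraries (10x Genomics) of 2 DEP and 2 PBS mice were used. The authors processed the reads with Cell Ranger and STAR 2.6.1a against mm10, left out cells with few UMIs or genes or with an unusual mitochondrial share, found no doublets by simulation, and deposited UMI counts per gene and cell. Here no doublet caller was run. Cells were assigned to mice by the suffix of their column. UMI counts were summed per mouse, or per mouse and C1q bin, and tested with edgeR 4.0.16 (R 4.3.3; glmQLFit, glmQLFTest, TMM, Benjamini-Hochberg over all genes tested) on genes that exceeded 1 CPM in 2 or more libraries and were detected in 5% or more of the cells. C1qa, C1qb and C1qc were left out between bins. The SE is the log2 difference divided by the square root of the F statistic, and 95% intervals are normal. They are narrower than the F test allows. For S100a11 between DEP and PBS mice over all cells the interval was 0.02 to 0.74, while the unadjusted edgeR p was 0.0511. The tests were run on simulated counts with known changes. The size of these changes is not given here, so the recovered shares do not tell which log2 differences could have been missed. Between DEP and PBS mice they recovered 63% over all cells, 58.5% in C1q-high cells, 21% in C1q-low cells and 0% in C1q-intermediate cells. The difference of the DEP effects recovered 14.5%. Between bins the shares were 41.5% for C1q-low against C1q-high, 24.5% for C1q-intermediate against C1q-high and 23% for C1q-low against C1q-intermediate cells. A member that was not called is therefore not shown to be unchanged. DESeq2 1.42.0, RLE factors, other cells and bin limits, thinning to 1000 UMIs and each mouse left out were the alternatives. Total UMIs per deposited library ran from 747351 to 1349134, and floors and intervals cover counting error only. All members, the other S100-named genes, the listed partners that passed or were most abundant, and the 3 genes most correlated with each member were named. The members and lists were chosen with earlier results of these data known. Dendritic-marker cells and the immunoglobulin setting were added after the data were seen. Of the genes, 20 had no symbol in the annotation. The values of 1 listed calcium-binding gene are not reported here.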

Additional observations from a re-analysis of the deposited data

Results flagged for a closer look

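Aif1, an EF-hand actin bundler of macrophages, differed in its DEP effect between C1q-low and C1q-high cells, by 2.0 on the log2 scale (SE 0.365, edgeR adjusted p = 0.000110). This test of a difference between bins is what brought it here. In C1q-low cells it stood at 913 and 626 CPM in the DEP mice and at 143 and 239 CPM in the PBS mice, while in C1q-high cells it stood at 1661 and 1505 CPM and at 1697 and 1646 CPM. The difference of effects passed in 11 of 14 alternatives, and it did not with DESeq2, with bin limits at 0.15% and 0.5% or without PBS mouse 2 (1.72, edgeR adjusted p = 0.235). No S100 gene met the same test.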

How the results depend on the processing

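The 5 members called between C1q-low and C1q-high cells were called in all 15 alternatives, in the same direction, and without a mouse 5 were called each time. Without the replicate block for the mouse, 5, 2 and 4 members were called in the C1q-low against C1q-high, C1q-intermediate against C1q-high and C1q-low against C1q-intermediate comparisons, as with it. No paired analysis was possible for DEP against PBS because the groups share no replicate number. Between C1q-intermediate and C1q-high cells 1 member was called after thinning to 1000 UMIs, 1 with bin limits at 0.15% and 0.5% and 1 with limits at 0.5% and 1.5%, in place of 2. Between DEP and PBS mice, 1 member was called over all cells with no filter on low counts, and leaving out a mouse gave 0 to 2 members over all cells and 0 to 1 in C1q-high cells. The share of C1q-low cells differed by 9.65 to 16.2 points. The causes were not tested. Over all genes the alternatives called 0 to 76 between DEP and PBS mice over all cells in place of 15, 0 to 26 in C1q-low cells in place of 10, 0 to 26 in C1q-intermediate cells in place of 9 and 0 to 34 in C1q-high cells in place of 1. They called 393 to 1030 between C1q-low and C1q-high cells in place of 878, 51 to 243 between C1q-intermediate and C1q-high cells in place of 175, 150 to 675 between C1q-low and C1q-intermediate cells in place of 319 and 0 to 18 for the difference of the DEP effects in place of 9.

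The other values that changed sign belonged to differences that the main test did not call, and none was called after the change. For DEP against PBS, with all deposited cells these were S100a13 over all cells (-0.051), S100a1 (0.60) and S100a10 (-0.094) in C1q-low, S100a11 (0.040) and S100a13 (0.12) in C1q-intermediate, and S100a1 (-0.064), S100a6 (-0.29), S100a10 (-0.25) and S100a13 (-0.070) in C1q-high cells. Without immunoglobulin markers they were S100a13 over all cells (-0.060), S100a1 in C1q-low (0.17), S100a11 (0.059) and S100a13 (0.14) in C1q-intermediate, and S100a1 (-0.029), S100a6 (-0.27), S100a10 (-0.24) and S100a13 (-0.053) in C1q-high cells. After thinning they were S100a13 over all cells (-0.12), S100a1 (0.77) and S100a13 (0.54) in C1q-intermediate, and S100a1 (-0.36), S100a11 (0.061) and S100a13 (-0.23) in C1q-high cells. With equal bin shares they were S100a1 (0.17), S100a4 (-0.30), S100a10 (-0.10) and S100a13 (-0.11). With limits at 0.15% and 0.5% they were S100a1 (0.38), S100a4 (-2.16) and S100a11 (0.56) in C1q-intermediate and S100a4 (0.35) in C1q-high cells, and with limits at 0.5% and 1.5% S100a10 in C1q-intermediate cells (0.15). In C1q-low cells S100a1 was at 0.076 with no filter, at 0.053 without neutrophil-marker cells, where S100a10 was at -0.0043, and at 0.069 without dendritic-marker cells, where S100a1 over all cells was at 0.029.

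Between C1q-intermediate and C1q-high cells the sign changed for S100a1 with RLE factors (0.014), thinning (0.14) and limits at 0.15% and 0.5% (0.18), where S100a10 (-0.25) and S100a13 (-0.033) changed too, and for S100a13 with no filter (-0.048). Between C1q-low and C1q-intermediate cells it changed for S100a13 with DESeq2 and RLE factors (both -0.15), thinning (-0.039), without dendritic-marker cells (-0.011) and without immunoglobulin markers (-0.033). The difference of the DEP effects changed sign with all deposited cells for S100a1 (0.65), S100a4 (0.065), S100a6 (0.021) and S100a10 (0.084), without immunoglobulin markers for S100a1 (0.23), S100a4 (0.21) and S100a10 (0.32), with no filter for S100a1 (0.026) and S100a10 (0.12), with thinning for S100a1 (0.016) and S100a4 (0.13), and for S100a10 with limits at 0.15% and 0.5% (0.00025) and without dendritic-marker cells (0.022).

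Leaving out 1 mouse gave, for DEP against PBS over all cells, -0.21 to 0.016 for S100a1, -0.069 to 1.01 for S100a10 and -0.11 to 0.29 for S100a13. In C1q-low cells it gave -0.14 to 0.17 for S100a1, -0.71 to 0.060 for S100a4, -0.31 to 0.11 for S100a6, -0.22 to 0.33 for S100a10 and -0.88 to 0.070 for S100a13. In C1q-intermediate cells it gave -2.08 to 0.59 for S100a1, -1.48 to 0.90 for S100a10 and -0.48 to 0.17 for S100a13. In C1q-high cells it gave -0.75 to 0.96 for S100a4, -0.26 to 1.70 for S100a6, -0.59 to 0.78 for S100a10, -0.30 to 0.26 for S100a11 and -0.11 to 0.45 for S100a13. Between C1q-intermediate and C1q-high cells S100a1 ran from -0.53 to 0.16. The difference of the DEP effects ran from -0.24 to 0.072 for S100a1, -0.84 to 0.20 for S100a4, -0.49 to 0.31 for S100a10, -0.0041 to 0.34 for S100a11 and -1.14 to 0.12 for S100a13.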
